A study of Mus musculus with 16 samples.

Results

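Macrophage marker genes were followed in the developing mouse epididymis, the coiled duct that carries sperm away from the testis. The set holds 8 genes, Csf1r, Ptprc, Adgre1, Fcgr1, Cd68, Mrc1, Lyve1 and F13a1, taken by symbol from the annotation of the array. They were represented by 13 of the 45101 probe sets on the array, and 11 of those 13 passed the filter on dim probe sets that left 25981 in all.

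Whole epididymides of wild-type CD-1 males, an outbred stock, were excised at gestational day 12 (gd12, Theiler stage 20), 14 (gd14, stage 22), 16 (gd16, stage 24) or 18 (gd18, stage 26), or on day 2 after birth (pnd2, stage 27), with 3 arrays per stage and 15 in all. No allele, transgene or treatment distinguished the groups. The labels of the gd12 and gd14 samples mark them as pools of size 3, and those of the later samples as not pooled, whereas the description of the design gives every sample as both organs of 1 animal, each animal from another dam. These statements conflict and could not be settled here, and any difference of gd16, gd18 or pnd2 from gd12 or gd14, ratios included, cannot be told apart from a change in pooling. The comparison of gd14 with gd12 lies within the samples labelled as pools. A further array held RNA of 8 whole newborns (4 male, 4 female) at postnatal day 0.5.

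Macrophages are phagocytes that settle in nearly every organ of the embryo. Their survival depends on the receptor CSF1R and its ligands, and they clear dying cells and supply growth factors while ducts and vessels are shaped. In the adult epididymis they form a network around and within the duct epithelium. CSF1R is the receptor tyrosine kinase for the cytokines CSF1 and IL-34, and PTPRC (CD45) is the tyrosine phosphatase found on nearly all nucleated blood cells. ADGRE1 is the F4/80 antigen of mouse macrophages, FCGR1 the high-affinity receptor for IgG, and CD68 a glycoprotein of macrophage lysosomes. MRC1 (CD206) is the mannose receptor and LYVE1 a receptor for hyaluronan, both carried by many tissue-resident macrophages and also by lymphatic or sinusoidal endothelium. F13A1 is the catalytic subunit of coagulation factor XIII, made by macrophages and by megakaryocytes.

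All values are intensities (signal) on a linear scale, scaled per array, and they compare 1 probe set between arrays and not 1 gene with another. Of the 15 arrays, pnd2 replicate 3 stood apart. Its ratio of 3′ to 5′ signal was 63.16 for Gapdh and 80.73 for Actb, against 4.33 to 7.18 and 2.40 to 4.14 on the other 14 arrays, and its median signal was 81.24, against 110.27 to 132.97. The main changes and counts that rest on pnd2 are therefore given with and without that array, and the rest with it only. Since all stages share 1 estimate of the spread, that array also bears on calls between other stages. Nothing in the labels or files gave a batch, and the number of arrays limits the precision. In these bulk samples, fewer cells of a type and less RNA per cell cannot be told apart.

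The level of the macrophage receptor Csf1r was lowest at gd12, and its stages overlapped from gd14 on. Its brightest probe set (1419872_at) had signals of 2573, 1023 and 1387 at gd12, 4562, 3855 and 4703 at gd14, 4872, 4473 and 4024 at gd16, 4635, 3751 and 3695 at gd18, and 4358, 5673 and 6178 at pnd2. Every later array lay above the 3 gd12 arrays, and the ranges of neighbouring stages from gd14 to pnd2 overlapped. In the limma fit the gd14 level was 2.81-fold that of gd12 (adjusted p = 0.00223), a log2 change of 1.49 with a standard error, given after ± from here on, of 0.26 (n = 3 arrays per stage). A second Csf1r probe set (1419873_s_at) gave a log2 change of 1.43 (adjusted p = 0.0195). The dimmest of the 3 (1423593_a_at) gave 0.995 and missed the threshold (adjusted p = 0.0692).

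**Figure D1:**
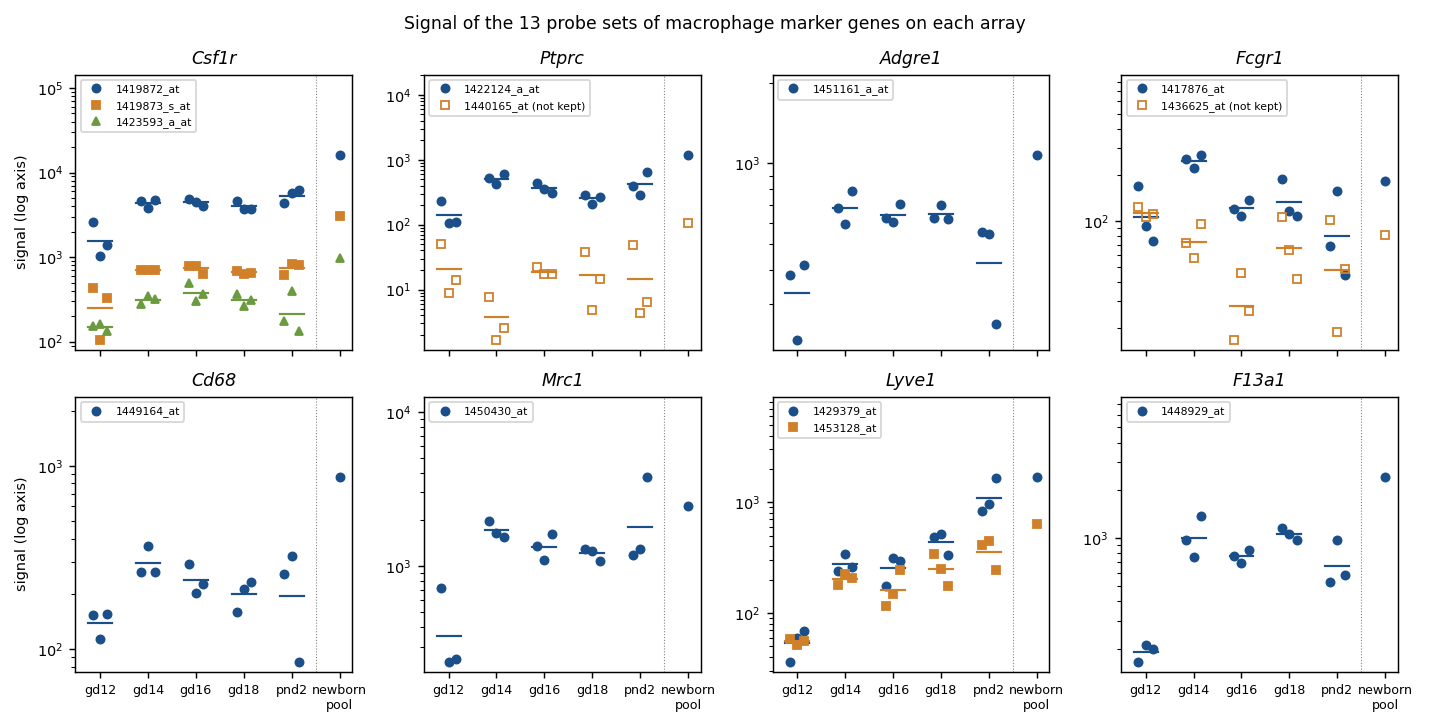
Signal of all 13 probe sets of the 8 genes on each array, on a log axis, by stage, with the single array of pooled newborns right of the dotted line. Points are arrays, horizontal bars are stage means taken on the log2(signal + 16) scale, colours and symbols separate probe sets of a gene, and open symbols mark the probe sets that did not pass the filter. For each gene's brightest probe set the 3 gd14 arrays lie above the 3 gd12 arrays, and Lyve1 is highest at pnd2.

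Between gd12 and gd14 most of the set rose. F13a1, Mrc1, Lyve1, Ptprc, Csf1r and Adgre1 rose, 6 of 8 genes called higher at an adjusted p under 0.05, where 6.01% of all 12239 genes were called higher in this interval. Of the 8, 0 were called lower, beside 4.94% of all genes. For all 8 genes the 3 gd14 arrays lay above the 3 gd12 arrays, a separation that 22.0% of all genes showed in this direction. The median log2 change of the 8 genes was 1.63, beside 0.028 over all genes.

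F13a1 had the largest change of the set. Its signals were 968, 753 and 1381 at gd14, against 164, 212 and 200 at gd12, a 4.92-fold higher level (log2 change 2.30 ± 0.25, limma adjusted p = 7.375e-05). Mrc1 stood at 1944, 1646 and 1543 at gd14, against 714, 236 and 251 at gd12, which was 4.69-fold higher (2.23 ± 0.42, adjusted p = 0.00391). The gd12 array with the high Mrc1 value, replicate 13, had the lowest F13a1 value of its stage. Lyve1 (1429379_at) gave 239, 343 and 261 at gd14, against 35.88, 59.45 and 68.52 at gd12, a 4.25-fold difference (2.09 ± 0.31, adjusted p = 0.000647). Its other probe set (1453128_at) rose as well, by 1.62 on the log2 scale (adjusted p = 0.00433). For each of these genes even the lowest gd14 array was above the highest gd12 array.

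Ptprc, the common leukocyte gene, had signals of 533, 420 and 596 at gd14, against 229, 106 and 108 at gd12, and was 3.41-fold higher (1.77 ± 0.32, limma adjusted p = 0.00273). Adgre1 had 681, 595 and 788 at gd14, against 385, 219 and 418 at gd12, a 2.03-fold rise (1.02 ± 0.29, adjusted p = 0.0416). The Adgre1 call was weakly placed, since it held in 15 of 27 settings of the fit and was lost without gd12 replicate 13 or 14, without any 1 of the gd14, gd16 or gd18 arrays, and with no filter. The Ptprc call held in all 27. The second Ptprc probe set (1440165_at) ran the other way at dim signals, with 7.63, 1.65 and 2.53 at gd14, against 49.81, 8.98 and 14.02 at gd12, and its arrays did not overlap between the stages. It did not pass the filter and was not part of the fit.

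Cd68 and Fcgr1 did not pass the threshold between gd12 and gd14. Cd68 had 264, 364 and 262 at gd14, against 153, 113 and 156 at gd12 (log2 change 0.99 ± 0.37, limma adjusted p = 0.115). Fcgr1 (1417876_at) had 254, 223 and 269 at gd14, against 169, 93.39 and 73.72 at gd12 (1.11 ± 0.38, adjusted p = 0.0854). Neither gene's stages overlapped, and both were called higher when pnd2 replicate 3 was left out, with the same fold and adjusted p of 0.00415 for Cd68 and 0.0208 for Fcgr1. All 8 genes were called higher in that fit, where the share of all genes called higher was 14.8%, or 1811 of 12239. The second Fcgr1 probe set (1436625_at) went the other way, with 71.85, 56.98 and 95.27 at gd14, against 122.54, 106.62 and 110.81 at gd12, but it did not pass the filter and was not part of the fit.

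**Figure D2:**
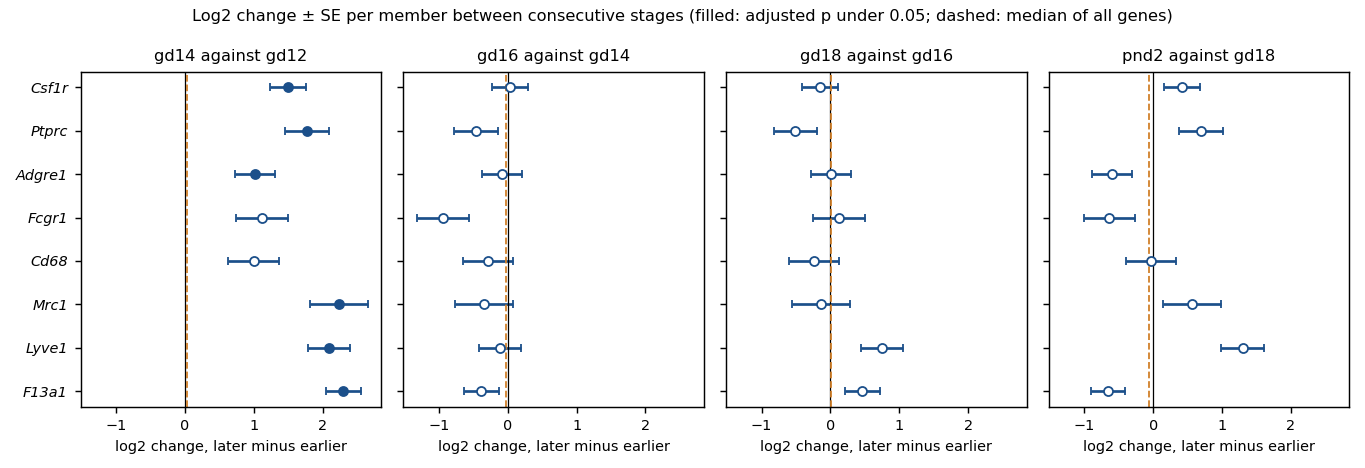
Log2 change with its standard error for the brightest probe set of each gene, later minus earlier stage, in the 4 consecutive intervals (n = 3 arrays per stage). Filled points passed an adjusted p under 0.05 in limma, open points did not, and the dashed line is the median over all genes. The filled points lie in the first interval only, where all 8 values run from 0.99 to 2.30.

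The gd12 samples also carried higher signals of most tested germ cell and gonadal genes than the gd14 samples. Of 10 tested gonad and germ cell genes, 7 were lower at gd14 and 0 higher, with a median log2 change of -2.41, and their summed signal over 12 genes was 2171 to 3478 at gd14, against 15659 to 23667 at gd12. Dppa5a, a germ cell gene, had 378, 399 and 645 at gd14, against 10013, 13097 and 13524 at gd12, and Nr5a1, the gonadal and adrenal regulator also called SF-1, had 100, 60.48 and 94.07 at gd14, against 617, 1044 and 1172 at gd12. Within gd12, replicate 13 was lowest for both of these genes. By brightest probe sets it was highest for Csf1r, Mrc1, Ptprc and Fcgr1, lowest for F13a1 and Lyve1, and in between for Adgre1 and Cd68. The second Lyve1 probe set was highest on that array, at 58.38 against 52.02 and 56.08. Steroid synthesis genes of the list did not follow Dppa5a and Nr5a1. Cyp17a1, an enzyme of androgen synthesis, had 949, 302 and 218 at gd14, against 15.77, 131 and 111 at gd12 (2.31 ± 1.24, limma adjusted p = 0.305). On gd16 replicate 9 it reached 2211, and Star (598), Hsd3b1 (549) and Cyp11a1 (511) had their highest epididymis signal on that array. The part of gonadal RNA in the rise of the macrophage genes was not tested.

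Promoters are shown for 3 of the genes called higher at gd14 than at gd12. Myeloid genes are commonly controlled through sites for PU.1, the transcription factor encoded by Spi1. The letters searched were GAGGAA, a core shared by many PU.1 sites, and its reverse complement TTCCTC, in 300-base windows reaching from 250 bases before to 50 bases after each start (RefSeq, GRCm38.p6). Capitals mark each match, sequences run 5′ to 3′ on the gene's strand, and the windows are Mrc1 at chr2:14229164-14229463 (plus strand), F13a1 at chr13:37049164-37049463 (minus strand) and Ptprc at chr1:138175256-138175555 (minus strand).
Mrc1: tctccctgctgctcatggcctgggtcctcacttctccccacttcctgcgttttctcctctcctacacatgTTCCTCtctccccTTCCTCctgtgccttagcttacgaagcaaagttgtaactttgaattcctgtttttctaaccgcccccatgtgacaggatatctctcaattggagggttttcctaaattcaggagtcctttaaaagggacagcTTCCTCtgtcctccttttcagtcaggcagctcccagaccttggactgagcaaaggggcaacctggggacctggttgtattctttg
F13a1: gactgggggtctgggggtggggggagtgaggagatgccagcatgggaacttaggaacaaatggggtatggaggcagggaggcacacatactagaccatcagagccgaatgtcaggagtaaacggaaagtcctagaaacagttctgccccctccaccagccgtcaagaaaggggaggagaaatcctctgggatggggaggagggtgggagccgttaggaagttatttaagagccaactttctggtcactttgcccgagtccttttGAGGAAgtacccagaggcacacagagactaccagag
Ptprc: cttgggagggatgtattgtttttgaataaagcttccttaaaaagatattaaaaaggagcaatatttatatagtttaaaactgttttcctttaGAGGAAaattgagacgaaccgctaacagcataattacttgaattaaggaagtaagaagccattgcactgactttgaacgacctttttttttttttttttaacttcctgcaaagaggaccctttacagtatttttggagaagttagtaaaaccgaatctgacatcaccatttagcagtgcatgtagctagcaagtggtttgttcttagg
The Mrc1 window held 3 matches, all as TTCCTC, and the printed F13a1 and Ptprc windows 1 each as GAGGAA. F13a1 and Ptprc each had another window that is not printed. That of F13a1 (chr13:37050195-37050494) held 2 matches, as GAGGAA, and that of Ptprc (chr1:138175077-138175376) held 0. Of the members, Ptprc, Mrc1, Fcgr1, Cd68 and F13a1 were searched and Csf1r, Adgre1 and Lyve1 were not, and all 5 held the letters, in 6 of their 7 windows. The same letters stood in 28.3% of all 32851 promoter windows of that length. The longer GAGGAAGT (reverse complement ACTTCCTC), which contains GAGGAA, was found in 1 member window, that of F13a1 printed here, and in 3.20% of all windows. A match of letters is a description and not a bound site. Spi1 itself, named here for its role with its values known, had signals of 208, 109 and 179 at gd14, against 74.07, 129 and 108 at gd12, ranges that overlapped (log2 change 0.58 ± 0.36, limma adjusted p = 0.390).

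Other genes of macrophages and leukocytes moved in the same direction in that interval, although most listed genes did not pass the test. Of 14 tested resident macrophage surface and scavenger genes, 4 rose and 0 fell, with a median log2 change of 0.89. They were Cx3cr1, the fractalkine receptor (2.28 ± 0.37), Clec4n, the C-type lectin dectin-2 (1.69 ± 0.32), and the scavenger receptors Msr1 (1.33 ± 0.28) and Stab1 (0.91 ± 0.22). Cx3cr1 stood at 1143, 879 and 1059 at gd14, against 374, 94.74 and 211 at gd12. Another 9 genes of this list did not pass the filter, namely Cd163, Timd4, Aif1, Clec10a, Siglec1, Vsig4, Marco, C5ar1 and P2ry12. Their highest signals on any epididymis array ran from 19.41 to 155.5. Of 19 tested complement C1q and lysosome genes, 8 rose and 0 fell (median 0.73), led by C1qc, a chain of the first complement component (2.03 ± 0.30), the lysozyme Lyz1 (1.98 ± 0.33) and the lysosomal proteases Ctss (1.92 ± 0.28) and Ctsc (1.54 ± 0.21). Of 12 tested Fc receptor, integrin and leukocyte genes, 6 rose and 0 fell (median 1.03), among them Cd53 (1.64 ± 0.25), Coro1a (1.49 ± 0.35), Laptm5 (1.46 ± 0.41) and the low-affinity IgG receptor Fcgr3 (1.23 ± 0.23).

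Genes of the CSF1R pathway moved in both directions. Of 9 tested genes for its ligands and signalling, Tyrobp, the adaptor DAP12, rose (1.54 ± 0.27), while Plcg2 (-1.67 ± 0.26) and the phosphatase gene Ptpn6 (-0.99 ± 0.27) fell, and the median was 0.33. The ligand gene Csf1 gave 241, 180 and 212 at gd14, against 203, 93.08 and 226 at gd12, which overlapped (0.33 ± 0.32, limma adjusted p = 0.618), and Il34, the other ligand, did not pass the filter, with at most 99.11 on any epididymis array. Of 13 tested myeloid transcription factors, Ikzf1 (1.91 ± 0.44) and Maf (0.65 ± 0.17) rose and 0 fell. Of 8 tested macrophage chemokine and growth factor genes, Igf1, insulin-like growth factor 1, rose (1.12 ± 0.27) and 0 fell.

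Markers of other cell types that could carry some of the 8 genes were set beside them. Of 5 tested lymphatic and sinusoidal endothelial genes, 0 passed in either direction between gd12 and gd14 (median 0.00), and their summed signal over 8 genes was 2431 to 2717 at gd14, against 2156 to 3001 at gd12. Prox1, the defining regulator of lymphatic endothelium, did not pass the filter and had at most 104 on any epididymis array. Of 13 tested blood endothelial genes 0 passed (median 0.13). Of 6 tested megakaryocyte and platelet genes, which share F13a1 with macrophages, Clec1b (-3.10 ± 0.65) and Itgb3 (-1.51 ± 0.40) fell and 0 rose. Among 4 tested MHC class II genes 0 passed, with a summed signal over 6 genes of 343 to 727 on all epididymis arrays and 1688 in the newborn pool.

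Some mast cell and monocyte genes also rose. Of 5 tested mast cell genes, Gata2 (1.87 ± 0.27) and Cpa3, a mast cell carboxypeptidase (1.74 ± 0.50), rose and 0 fell, and their summed signal over 11 genes was 4881 to 5109 at gd14, against 1324 to 2736 at gd12. Most of that sum was Gata2, a transcription factor that many other cells also express, with 4056, 4377 and 4206 at gd14, against 1871, 707 and 1115 at gd12, and 515 in the newborn pool. Hdc, the histamine-forming enzyme, had 244, 439 and 190 at gd14, against 501, 399 and 666 at gd12, which overlapped (-0.86 ± 0.38, limma adjusted p = 0.191). Of 4 tested monocyte and neutrophil genes, Plac8 rose (1.75 ± 0.31) and 0 fell, with a summed signal over 14 genes of 3678 to 5578 at gd14, against 1143 to 2076 at gd12. The largest part of that sum was Plac8 itself, with 2990, 3954 and 2941 at gd14, against 1500, 512 and 1142 at gd12. Of the 14 genes, 10 did not pass the filter. Itgam, from the leukocyte integrin list, encodes CD11b of monocytes, neutrophils and many macrophages. It did not pass the filter and had at most 45.98 on any epididymis array. Only 1 lymphoid gene could be tested and it did not pass. For Ptprc and Fcgr1, which several blood cell types express, the part of these other cells in the change was not tested. Matrix genes rose in the same interval, 11 of 12 tested (median 1.63, 0 fell). Of 11 tested Wolffian duct and epididymis identity genes, 3 rose and 0 fell (median 1.19). Of 7 tested erythroid genes, 2 fell and 0 rose (median -0.37).

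**Figure D3:**
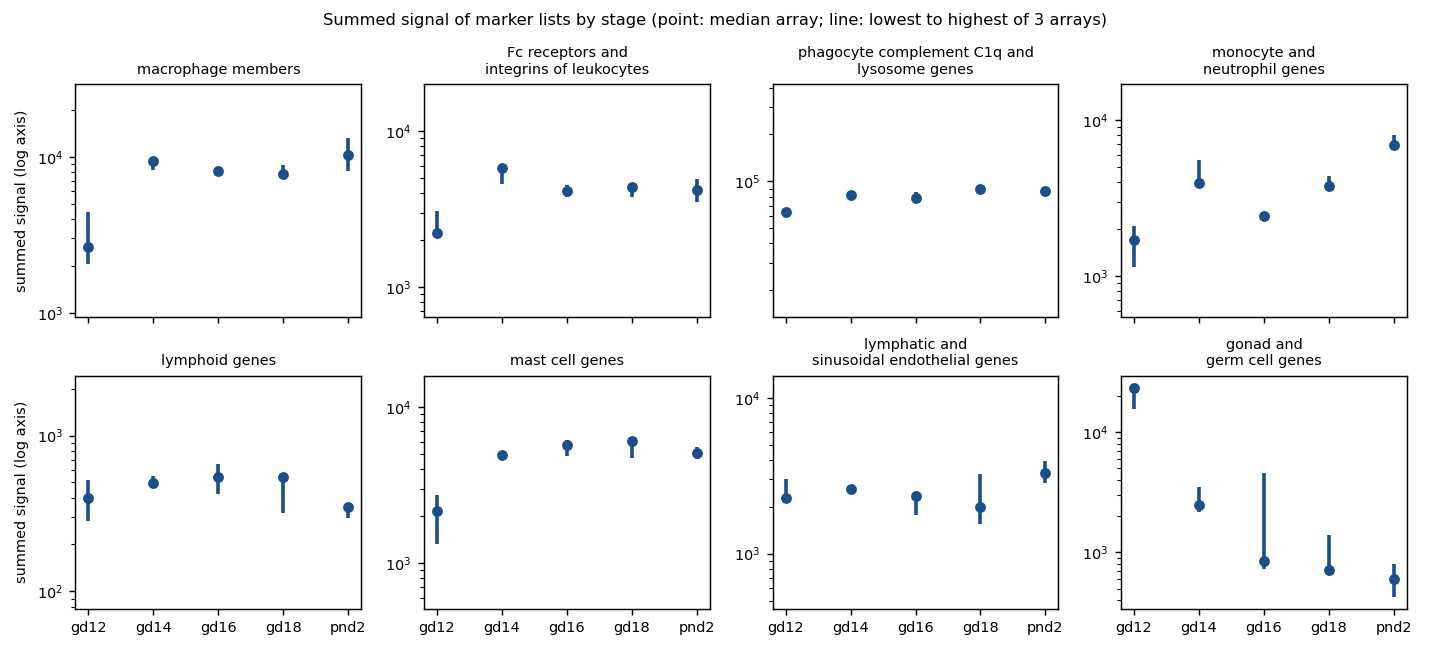
Summed signal of 8 marker lists by stage on log axes, taken over the brightest probe set of each gene (point, median array; line, lowest to highest of the 3 arrays). The sum over the macrophage genes is 7315 or more on every array from gd14 on and 2062 to 4423 at gd12, while the sum over gonad and germ cell genes is highest at gd12.

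After gd14 the set showed no called change between any neighbouring stages. Between gd16 and gd14, 0 of 8 genes passed in limma (0.0735% of all genes were called), with log2 changes from -0.94 to 0.03 (SE 0.25 to 0.42) and a median of -0.32. The gene at an unadjusted p under 0.05 was Fcgr1, at 120, 107 and 138 at gd16, against 254, 223 and 269 at gd14 (-0.94 ± 0.38, adjusted p = 0.820). Between gd18 and gd16, 0 of 8 passed (0.212% of all genes), 1 gene (Lyve1) was at an unadjusted p under 0.05, and the changes ran from -0.51 to 0.74. Between pnd2 and gd18, 0 of 8 passed (0.556% of all genes) and Lyve1, Ptprc and F13a1 were at an unadjusted p under 0.05. Without pnd2 replicate 3 the shares of all genes called in these 3 intervals were 0.94%, 1.31% and 1.76%, and 0 of 8 genes passed in any of them. That a change missed the threshold does not show that the stages were alike.

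Lyve1 had its highest level at pnd2. Its brighter probe set gave 35.88, 59.45 and 68.52 at gd12, 239, 343 and 261 at gd14, 177, 312 and 298 at gd16, 482, 517 and 337 at gd18, and 833, 969 and 1650 at pnd2. The pnd2 arrays all lay above every earlier array. The pnd2 level was 16.2-fold that of gd12 (log2 change 4.01 ± 0.31, limma adjusted p = 5.682e-07) and 13.2-fold without pnd2 replicate 3. Against gd14, a comparison chosen after the values were seen, it was 3.80-fold higher (1.93 ± 0.31, adjusted p = 0.00137), and 3.11-fold without that array (adjusted p = 0.00128). Against gd18 it was 2.46-fold higher but missed the threshold (1.30 ± 0.31, adjusted p = 0.0716), as it did without that array (2.01-fold, adjusted p = 0.0834), and over 27 settings of the fit it was called in 4.

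The second Lyve1 probe set had 415, 450 and 243 at pnd2, against 342, 251 and 175 at gd18. Its change between pnd2 and gd14 was 0.77 ± 0.31 (limma adjusted p = 0.131), and passed without pnd2 replicate 3 (1.03 ± 0.31, adjusted p = 0.0368). The overlap of pnd2 with gd18 came from that replicate, the 243, since the other pnd2 arrays lay above all 3 gd18 arrays. The change between these stages did not pass with it (0.50 ± 0.31, adjusted p = 0.343) or without it (0.77 ± 0.31, adjusted p = 0.215). Since LYVE1 also marks lymphatic endothelium, the markers of that tissue are given for the same stages. The summed signal of the 8 lymphatic and sinusoidal genes was 2848 to 3955 at pnd2, against 1554 to 3223 at gd18. Of the 5 tested, 0 were called in that interval, beside 0.556% of all genes, which does not show that they were unchanged. Pdpn, podoplanin, which is also made by many fibroblasts and epithelia, had 1709, 2111 and 3044 at pnd2, against 899, 719 and 1767 at gd18 (1.08 ± 0.29, adjusted p = 0.0950), while Flt4, Stab2 and Mmrn1 had log2 changes of 0.03, -0.59 and 0.95. Mmrn1 had 418, 424 and 271 at pnd2, against 277, 128 and 164 at gd18, and its stages overlapped only through pnd2 replicate 3, the 271. Reln had 398, 303 and 390 at pnd2, against 460, 422 and 874 at gd18. The values of these lymphatic and sinusoidal genes include pnd2 replicate 3, the highest pnd2 array for Pdpn and the lowest for Stab2 and Mmrn1. The part of lymphatic vessels in the Lyve1 signal was not tested.

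Fcgr1, Ptprc, Adgre1 and Cd68 had their highest stage mean at gd14. Fcgr1 had 169, 93.39 and 73.72 at gd12, 254, 223 and 269 at gd14, 120, 107 and 138 at gd16, 188, 116 and 108 at gd18, and 69.10, 158 and 44.16 at pnd2, so the gd14 arrays were above all other epididymis arrays. At pnd2 it was 2.74-fold lower than at gd14 (-1.46 ± 0.38, limma adjusted p = 0.0263), a call lost without pnd2 replicate 3 (-1.12, adjusted p = 0.0541) and without any 1 of the gd14 arrays. Fcgr1 and Lyve1 were the 2 of 8 genes called between these stages, where 10.4% of all genes were called in either direction. Without pnd2 replicate 3 only Lyve1 was, beside 15.2% of all genes. Ptprc had 440, 360 and 312 at gd16, 286, 212 and 268 at gd18 and 390, 290 and 652 at pnd2. Its gd18 arrays lay below all 3 gd14 arrays, with a log2 change of -0.97 ± 0.32 that missed the threshold (adjusted p = 0.195), and passed it without pnd2 replicate 3 (adjusted p = 0.0351), where 7.93% of all genes were called. Between gd18 and gd14, 0 of 8 genes were called, beside 2.48% of all genes, with 2 at an unadjusted p under 0.05. For Mrc1, Cd68, Fcgr1 and Ptprc, 4 of the 8, all gd18 arrays lay below all gd14 arrays, as they did for 16.2% of all genes.

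No call was made between pnd2 and gd14 for the remaining genes. Mrc1 had 1351, 1090 and 1603 at gd16, 1289, 1255 and 1080 at gd18, and 1172, 1293 and 3765 at pnd2, with replicate 3 far above the other arrays of its stage. F13a1 had 768, 691 and 844 at gd16, 1153, 1061 and 973 at gd18, and 525, 968 and 583 at pnd2. Its pnd2 arrays lay below the 3 gd18 arrays but did not pass (-0.65 ± 0.25, limma adjusted p = 0.191, and -0.56 with adjusted p = 0.267 without pnd2 replicate 3). Adgre1 kept within 595 to 788 over the 9 arrays from gd14 to gd18, and had 554, 546 and 253 at pnd2. Cd68 had 290, 203 and 227 at gd16, 160, 213 and 231 at gd18 and 256, 322 and 84.36 at pnd2.

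Set against gd12, most of the genes were also higher at later stages. At gd18, Lyve1 (2.71), F13a1 (2.38), Mrc1 (1.74), Csf1r (1.37) and Adgre1 (0.95) were called higher, 5 of 8 genes, beside 11.6% of all genes. Without gd12 replicate 14, 3 of 8 were called, since Mrc1 and Adgre1 missed the threshold. At pnd2, Lyve1 (4.01), Mrc1 (2.30), Csf1r (1.78), F13a1 (1.72) and Ptprc (1.49) were called higher, again 5 of 8, beside 13.4% of all genes. Without pnd2 replicate 3 the count was 7, with Cd68 (0.97, limma adjusted p = 0.00836) and Adgre1 (0.72, adjusted p = 0.0234) added. Fcgr1 was at a log2 change of -0.01, and 17.8% of all genes were called higher. In that fit the changes were 3.725 for Lyve1, 1.82 for F13a1, 1.77 for Mrc1, 1.68 for Csf1r and 1.19 for Ptprc. The Csf1r probe sets differed between pnd2 and gd12. With all arrays 1419873_s_at was called higher (1.52, limma adjusted p = 0.00712). The dimmest, 1423593_a_at, was not called (0.47, adjusted p = 0.310), nor was it without pnd2 replicate 3 (0.775, adjusted p = 0.0562). Its signals were 176, 399 and 133 at pnd2, against 153, 163 and 133 at gd12. Across the 5 stages, the moderated F test called 5 of 8 genes, beside 24.5% of all genes, and these were Lyve1, F13a1, Csf1r, Mrc1 and Ptprc. The comparisons with gd12 and with gd14 share those arrays, so their values are not independent.

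The probe sets disagreed with each other on pnd2 replicate 3. Mrc1 was 3.03-fold, Ptprc 1.90-fold and the brighter Lyve1 probe set 1.82-fold above the mean of the other pnd2 arrays, whereas Cd68 was 3.02-fold, Adgre1 2.11-fold, Fcgr1 2.02-fold and the dimmest Csf1r probe set 1.90-fold below it. The second Lyve1 probe set was 1.73-fold below, so the probe sets of 1 gene parted on this array. Of the 8 genes it was the highest array of its stage for 4 and the lowest for 3. Whether these departures follow the position of a probe set along its transcript was not tested.

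**Figure D4:**
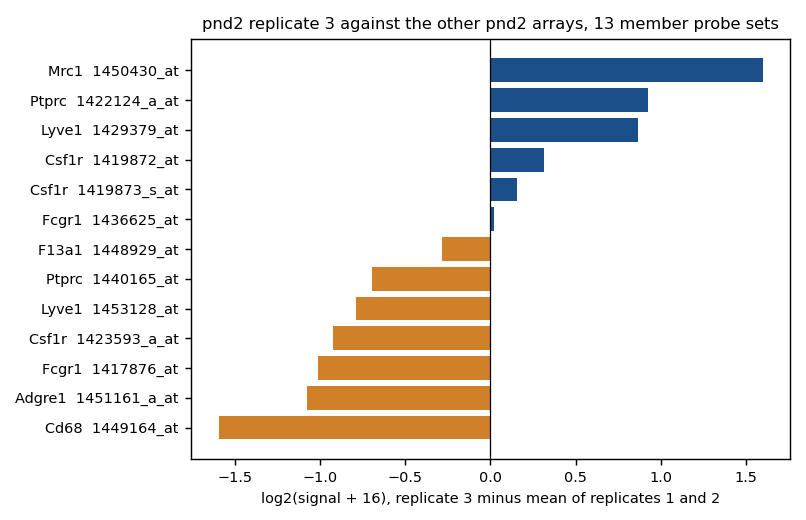
Difference in log2(signal + 16) between pnd2 replicate 3 and the mean of pnd2 replicates 1 and 2, for each of the 13 probe sets. Bars right of 0 are higher on replicate 3 and bars left of 0 are lower, and they run from Mrc1, 3.03-fold above, to Cd68, 3.02-fold below.

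Whether the genes kept a fixed proportion to Csf1r was read from the log2 ratio of each to Csf1r on the same array, 12 arrays from gd14 to pnd2 against 3 at gd12, where only the change in a ratio is meaningful. The ratio was higher in the later stages for Lyve1 (by 1.16), F13a1 (by 0.54) and Mrc1 (by 0.50). It was lower for Fcgr1 (-1.23), Cd68 (-0.89), Adgre1 (-0.72) and Ptprc (-0.20). Csf1r itself rose by 1.49 on the log2 scale between gd12 and gd14, beside a median of 0.028 over all genes. A gene with no change of its own would therefore also have a lower ratio in the later stages. The shares of all genes with a lower ratio, or passing the test below, were not taken. In a two-sided exact permutation test over 455 arrangements, which can reach no p below 0.0022, 0 of the 7 genes passed after Benjamini-Hochberg adjustment over them (adjusted p 0.12 to 0.4396), and Fcgr1 (p = 0.0176) and Cd68 (p = 0.044) were under 0.05 before it. Without pnd2 replicate 3, 3 of the 7 passed, namely Fcgr1 (-1.07, exact adjusted p = 0.0192), Cd68 (-0.73, adjusted p = 0.02885) and Adgre1 (-0.58, adjusted p = 0.03846), all lower relative to the brightest Csf1r probe set. These ratios depend on the Csf1r probe set taken. The dimmest, 1423593_a_at, rose by 0.995 on the log2 scale between gd12 and gd14, beside 0.99 for Cd68 and 1.02 for Adgre1.

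**Figure D5:**
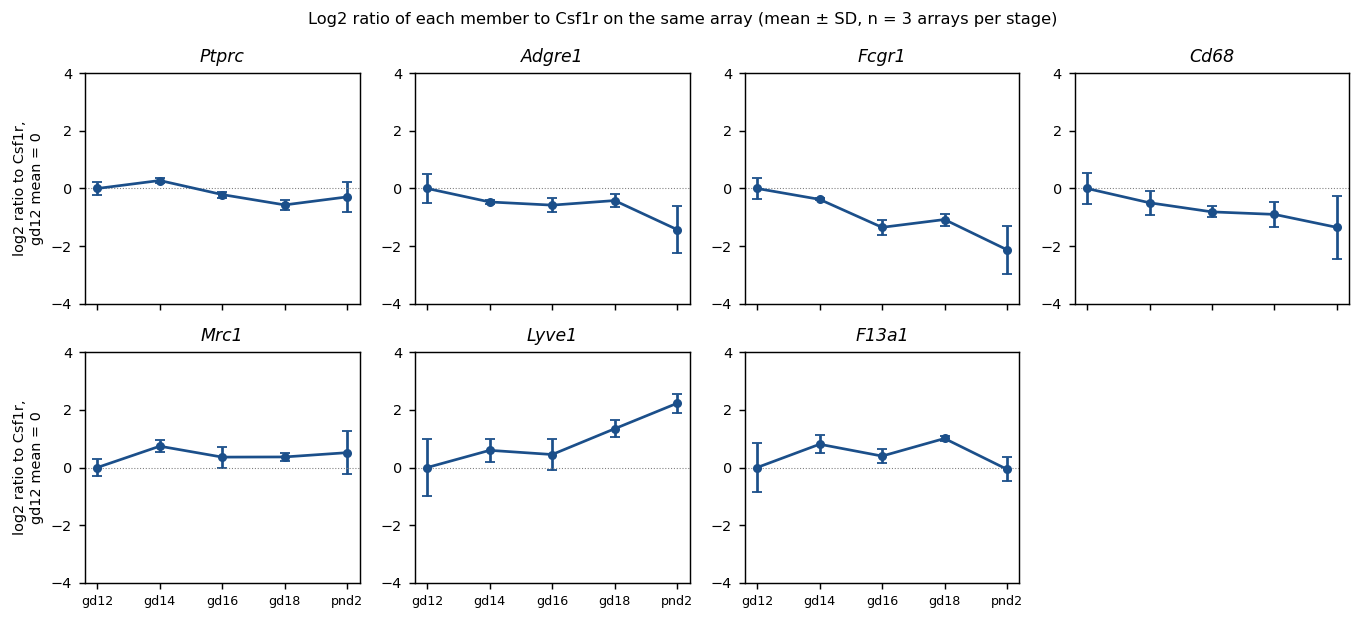
Log2 ratio of each gene to Csf1r on the same array by stage, shown relative to the gd12 mean (points, mean; bars, SD; n = 3 arrays per stage; brightest probe sets). Lyve1 climbs to its highest ratio at pnd2, Fcgr1, Cd68 and Adgre1 lie below 0 at all later stages, and the SD is widest at pnd2 for most genes.

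All 8 genes gave a higher signal in the whole newborn than on average in the pnd2 epididymis. Csf1r averaged 5403 ± 940 at pnd2 (SD, n = 3) and had 16097 in the pool, 2.98 times as much. The pool signal was 3.92 times the pnd2 mean for Cd68, 3.49 times for F13a1, 2.66 times for Ptprc, 2.38 times for Adgre1, 2.03 times for Fcgr1, 1.46 times for Lyve1 and 1.17 times for Mrc1. Against the pnd2 mean without replicate 3 it was 1.97 times as high for Mrc1, 3.00 times for Cd68, 3.47 times for Ptprc, 3.24 times for F13a1, 3.21 times for Csf1r, 1.95 times for Adgre1, 1.87 times for Lyve1 and 1.62 times for Fcgr1. It lay above all 15 epididymis arrays for 6 of the genes, above 14 for Mrc1 and above 11 for Fcgr1. With 1 pool array these differences have no replicate check and were not tested. The share of all genes with a higher signal in the pool was not taken. The pool array had 3′ to 5′ ratios of 2.90 for Gapdh and 2.03 for Actb, below those of every epididymis array. Its median signal of 133.99 was above that of every epididymis array.

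Genes whose profile over the 15 arrays came closest to the mean profile of the set were found by the root mean square difference between centred log2 values. The 10 nearest genes outside the set were Selenom (0.205), Syne1 (0.212), Nfib (0.216), Ctsc (0.226), Col3a1 (0.231), Tyrobp (0.241), Fbn2 (0.244), Marveld1 (0.247), Cd47 (0.248) and Gria3 (0.251). Ctsc and Tyrobp belong to the myeloid lists and Col3a1, a collagen chain, to the matrix list. Csf1r lay at 0.234 and was the nearest of the 8, while Fcgr1 (0.680) and Lyve1 (0.962) were the farthest from the mean they helped to form. Of the 12239 genes, 736 lay as close as the median member.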

How the data were processed

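RNA from 15 whole epididymis samples and 1 pool of newborns was amplified in 2 rounds and hybridised to single-colour Affymetrix arrays, per the labels. Each deposited value is the intensity (signal) of 1 probe set on 1 array, on a linear scale. The authors made it with GCOS, the Affymetrix scanner software, per the submitters' processing notes, with a version, signal algorithm and detection calls not given in the sources used. Because each array was scaled by 1 factor, a shift in many bright transcripts moves all others of that array together.

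Values were taken as log2(signal + 16), so folds of dim probe sets are understated. Probe sets at or above the array median on at least 3 of 15 arrays were kept (25981). Of the probe sets, 34945 had 1 symbol, 932 several, 9160 none, and 64 were controls. A gene was read from its brightest kept probe set. Comparisons between stages used limma 3.58.1 (R 4.3.3, 1 mean per stage, intensity trend, Benjamini-Hochberg adjustment over all kept probe sets, called under 0.05), and the procedure was tested on simulated data. The description of the design gives separate animals, while the labels mark the gd12 and gd14 samples as pools. The p-values therefore measure only the spread between samples.

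The members and the 17 other gene lists were chosen with earlier results of these data known. Named were all probe sets of the members, up to 4 called genes per list with the largest change, defining markers near the bottom of the range, and the 10 nearest profiles. Promoter windows came from RefSeq. As alternatives, arrays were quantile normalized or centred on their medians, the constant was 1 or 64, and the fit used other filters, 1 probe set per gene, no trend, array weights, only the 6 arrays compared, and left-out arrays.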

Additional observations from a re-analysis of the deposited data

How the results depend on the processing

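Over 26 alternative fits, Csf1r, F13a1, Lyve1, Mrc1 and Ptprc stayed called higher at gd14 than at gd12 in all, and no member called in a comparison changed direction in any alternative. Of all pairings of a called member gene and comparison with an alternative, 563 kept the call and 30 lost it. Between gd14 and gd12 the count of 6 genes ranged from 5 to 8 over left-out arrays, and the counts of 0 between gd16 and gd14 and between gd18 and gd16 did not move. Between pnd2 and gd18 the count of 0 became 1 with a constant of 64 and with array weights, and ranged from 0 to 1 over left-out arrays, the gene being Lyve1. Between pnd2 and gd12 it was 3 in place of 5 when only the 6 arrays compared were fitted, and 5 to 7 over left-out arrays. Between gd18 and gd12 it ranged from 3 to 6 over left-out arrays. Between gd18 and gd14 the count of 0 became 1 with array weights and 2 with only the 6 arrays compared, and ranged from 0 to 1 over left-out arrays. Between pnd2 and gd14 it was 1 in place of 2 with only the 6 arrays compared and with 3 arrays left out together (pnd2 replicate 3, gd14 replicate 10, gd16 replicate 9), and ranged from 1 to 3 over left-out arrays. The F test for any change called 8 members with array weights in place of 5, and 5 to 7 over left-out arrays. The test of ratios to Csf1r passed 2 genes in place of 0 with a constant of 64 and with the 3 arrays left out together, 1 when the probe set 1423593_a_at stood for Csf1r, and 0 to 3 over left-out arrays. The fits with fewer arrays have fewer degrees of freedom, and for the rest the cause was not tested. The comparisons of gd18 and of pnd2 with gd14 were added after seeing the data. Median centring moved the median of all genes by over 0.1 between pnd2 and every stage compared with it (0.192 in place of -0.054 against gd18). It changed the split of called genes to 27 higher and 9 lower between pnd2 and gd18 (29 and 39 without it), 951 and 280 between pnd2 and gd14 (739 and 539), and 1867 and 1042 between pnd2 and gd12 (1643 and 1424). No paired analysis was possible because the replicate numbers run on over all arrays and are not shared between stages. Depth of reading is set by signal over background, for which no detection calls were used here, and the dim probe sets of Ptprc and Fcgr1 that did not pass the filter are described without a test.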
